A study of Mus musculus with 6 samples.

Results

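The sites described here are smaller EZH2 peaks that stand alone in mouse embryonic fibroblasts with wild-type EED and that coincide with a called peak of trimethylated lysine 27 of histone H3 (H3K27me3) in fibroblasts with EED R302S. A site was taken from the list of EZH2 peaks when it was at most 4200 bp wide, when no other EZH2 peak lay within 5000 bp of it, and when it shared at least 1 bp with an H3K27me3 peak. The sites were thus chosen by the position and width of the called EZH2 peaks and by their overlap with called H3K27me3 peaks. Of the 3449 EZH2 peaks, 2273 met the limits on width and isolation, and 441 of these shared a stretch with an H3K27me3 peak. They were compared with the remaining 1832, which met the same limits but had no H3K27me3 peak, and at some points with the 387 solitary EZH2 peaks of 4400 bp or more (called wide here) that had one.

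The series holds 6 samples, 1 library for each of 3 forms of EED and 2 antibodies. All come from 1 clone of fibroblasts in which floxed EED had been removed with a transient lentiviral Cre, so that every group lacks its own EED. Stable expression of EED wild type, R302S or Y365A was then introduced by lentivirus. Chromatin was fixed briefly, digested to single nucleosomes by micrococcal nuclease, and bound by a monoclonal antibody against EZH2 or H3K27me3. Deposited peaks of 2 samples entered the work, those of EZH2 with wild-type EED and those of H3K27me3 with EED R302S; 4 samples were not analysed here.

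Polycomb repressive complex 2 (PRC2) keeps developmental genes silent and methylates histone H3 at lysine 27, with EZH2 as its catalytic subunit. Its subunit EED binds the finished trimethyl mark, and this binding stimulates the enzyme, which is how the mark is thought to spread from the places where PRC2 is first recruited into the surrounding chromatin. In mammals those places are often CpG islands. The series asked what remains of the methylation when the stimulated state of PRC2 is impaired, and the submitters named the listed H3K27me3 peaks residual.

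The antibody and the form of EED both differ between the lists, so their parts cannot be told apart. H3K27me3 in cells with wild-type EED was not analysed here, and whether the sites had kept, gained or lost part of an earlier mark is therefore unknown. Each list gives positions only. Read depth, peak height and peak scores are unknown, and a site below the threshold of a list cannot be told from an empty one. With 1 library a group there was no test between conditions and no p-value. Intervals below are 95% Wilson intervals for shares and exact binomial intervals for medians. They cover counting over sites within these libraries only, and neighbouring sites are not independent. Positions are in mm9 and counted from 1. No genome sequence or gene annotation of mm9 was used here, so the sites are named by position, without genes or sequences.

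The rule itself sets how many sites there are, and the following shares describe it. Of the 2273 smaller solitary EZH2 peaks, 441 had an H3K27me3 peak, which is 19.4% (17.8% to 21.1%), against 27.7% of all EZH2 peaks and 64.2% of the 603 wide solitary ones. "Smaller" holds only against the wide peaks: the median EZH2 width at the sites was 2800 bp (2800 to 3000 bp), above the 1800 bp of the 1832 peaks without H3K27me3 and the 2400 bp of the whole EZH2 list. H3K27me3 was present at 40 of 770 EZH2 peaks of 800 to 1400 bp (5.19%), at 118 of 760 of 1600 to 2400 bp (15.5%) and at 283 of 743 of 2600 to 4200 bp (38.1%). These width classes recur below. Just inside the width limit, 33 of 68 solitary peaks of 4000 bp and 27 of 59 of 4200 bp carried H3K27me3, and just outside it 22 of 40 of 4400 bp did. At the limit on isolation, 6 of 71 peaks with a gap of 5200 to 6000 bp carried it, and 5 of 76 with a gap of 4200 to 5000 bp. At the limit on overlap, 2 sites shared only 200 bp with H3K27me3, and 1 of the 1832 peaks without overlap had an H3K27me3 peak within 1000 bp.

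The first question was how wide the H3K27me3 of R302S cells was at these sites. At the typical site it was about as wide as the EZH2 peak. All but 2 of the 441 sites met a single H3K27me3 peak, and at those 2 the values below use the peak that shared more bases with EZH2; this leaves out a domain of 35.6 kb that meets a site on chromosome 11. The H3K27me3 peak had a median width of 2800 bp (2600 to 3200 bp), with quartiles of 1800 and 4400 bp and a range from 400 to 31200 bp. It was wider than the EZH2 peak at 220 sites, narrower at 194 and equal at 27, and the median ratio of the widths was 1.0 (1.0 to 1.11, quartiles 0.684 and 1.57). At the 387 wide solitary peaks with H3K27me3 the median ratio was also 1.0 (0.923 to 1.05), with a median H3K27me3 width of 6600 bp. H3K27me3 peaks that met no EZH2 peak had a smaller median, 800 bp over 278 peaks, but reached 74400 bp. A wider H3K27me3 peak meets an EZH2 peak more easily, and the part of this was not tested. Small EZH2 peaks thus had small H3K27me3 peaks and wide ones wide H3K27me3 peaks, with much scatter: over the 441 sites Spearman's rho between the widths was 0.33, a description across sites of the same 2 libraries.

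**Figure D1:**
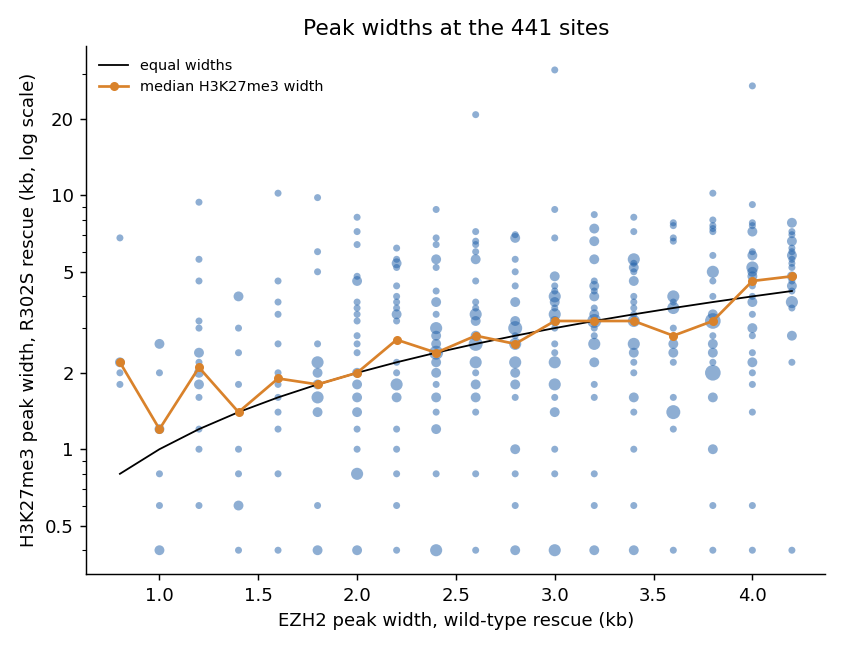
Width of the H3K27me3 peak in the R302S rescue (log scale, kb) against the width of the EZH2 peak in the wild-type rescue (kb) at the 441 sites; a larger dot holds more sites, orange marks the median at each EZH2 width and the black curve equal widths. The orange medians run from 1200 to 4800 bp, while single sites spread from 400 to 31200 bp. The medians lie farthest above the curve of equal widths at EZH2 widths of 800 and 1200 bp (2200 and 2100 bp). They lie farthest below it at 3600 bp (2800 bp).

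Among the sites, the narrowest EZH2 peaks had H3K27me3 that reached past them most in proportion. In the class of 800 to 1400 bp the median ratio was 1.69 (1.2 to 2.25, 40 sites), against 1.0 in both the class of 1600 to 2400 bp (0.909 to 1.22, 118 sites) and that of 2600 to 4200 bp (0.929 to 1.07, 283 sites). H3K27me3 was at least 2 times as wide as EZH2 at 18 of 40, 25 of 118 and 28 of 283 sites, in that order. In base pairs the H3K27me3 peaks of the narrowest class were still the smallest, with medians of 2000, 2200 and 3200 bp. The EZH2 width is the divisor of the ratio and also sets the class, and a wider H3K27me3 peak meets a narrow EZH2 peak more easily, and the part of both in this difference was not tested.

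The second question was where the H3K27me3 peak lay relative to EZH2. The centres nearly coincided. Their median distance was 200 bp (200 to 300 bp), which is 1 step of the 200 bp grid on which both lists were made, and it was at most 1000 bp at 422 of 441 sites (95.7%, 93.4% to 97.2%). The overlap required by the rule keeps these distances small, and at the wide solitary peaks with H3K27me3 the median was 600 bp. The centre of H3K27me3 lay on the side of lower coordinates at 186 sites, on the other side at 208 and at the same base at 47. It also showed no lean towards the nearest wide EZH2 peak, being shifted towards it at 197 sites and away from it at 197. Among the 44 sites with unequal centres and a wide EZH2 peak within 100 kb, the shift was towards it at 18 and away from it at 26 (40.9% towards, 27.7% to 55.6%).

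The edges fell into a few arrangements. H3K27me3 lay within the EZH2 peak at 168 sites, spread past both of its edges or past 1 edge with the other in common at 195, and had the same edges at 11. At the remaining 67 sites it was displaced, passing the left edge at 35 and the right edge at 32 without reaching the opposite edge. The EZH2 peak was covered by H3K27me3 over its whole length at 206 sites, and the median cover was 93.3% (88.9% to 100%). At 179 sites the H3K27me3 peak passed neither edge of EZH2. A reach of 1 kb or more past at least 1 edge was seen at 129 sites (29.3%, 25.2% to 33.7%), past both edges at 66, and a reach of 5 kb or more at 6. The domain of 35.6 kb, which passes the right edge of its site on chromosome 11, is not counted in these numbers. Of the wide solitary peaks with H3K27me3, 167 of 387 had a reach of 1 kb or more (43.2%, 38.3% to 48.1%).

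**Figure D2:**
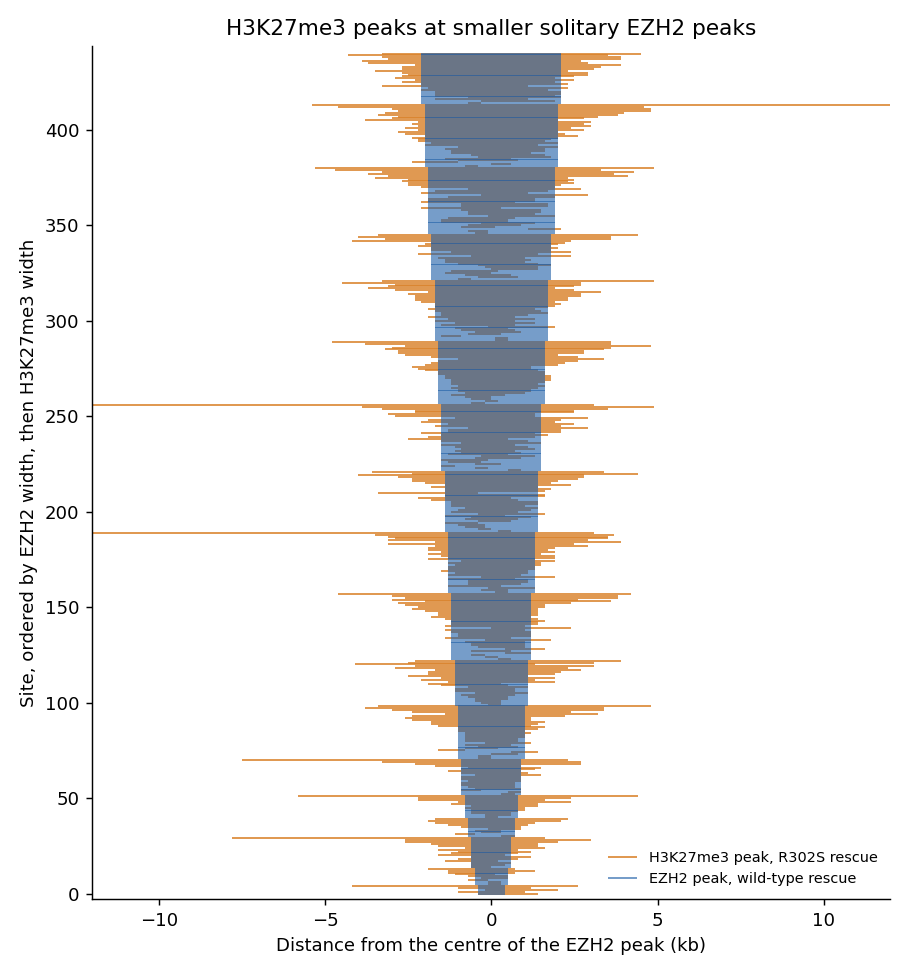
Each line is 1 of the 441 sites, centred on its EZH2 peak, with distance in kb from that centre on the horizontal axis; EZH2 of the wild-type rescue is blue, H3K27me3 of the R302S rescue orange, and grey where both were called. Sites are ordered upwards by EZH2 width and then by H3K27me3 width, so within each step the H3K27me3 peaks become wider upwards. Of the H3K27me3 peaks drawn, 1 a site, 3 run beyond the 12 kb shown on either side.

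Leaving aside the domain of 35.6 kb on chromosome 11, the 3 widest H3K27me3 peaks took in other EZH2 peaks, among them a wide one each. On chromosome 7 an EZH2 peak of 3.0 kb (86700201 to 86703200) lay under an H3K27me3 peak of 31.2 kb (86673601 to 86704800), together with 3 other EZH2 peaks of 5.6, 4.0 and 0.8 kb. Its width ratio of 10.4 and its centre offset of 12.5 kb were the largest of all sites. Elsewhere on chromosome 7 an EZH2 peak of 4.0 kb (25715601 to 25719600) shared an H3K27me3 peak of 27 kb with a wide EZH2 peak of 11.8 kb that began 8.2 kb away. On chromosome 13 an EZH2 peak of 2.6 kb (95652201 to 95654800) shared one of 20.8 kb with a wide EZH2 peak of 7.6 kb at a distance of 6.8 kb. Apart from these 3, a further EZH2 peak lay under H3K27me3 of a site only on chromosome 11, under the second of the H3K27me3 peaks at a site described below.

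At the other sites the H3K27me3 peak that shared most with EZH2 was at most 10.2 kb wide. That width was reached on chromosome 9, around an EZH2 peak of 3.8 kb (99767601 to 99771400) with H3K27me3 reaching 3.4 kb past it to the left and 3.0 kb to the right, and on chromosome 19, around an EZH2 peak of 1.6 kb (25684401 to 25686000) with a reach of 5.0 and 3.6 kb. The reach was less even on chromosome 2, where 9.4 kb of H3K27me3 went 7.2 kb to the left and 1.0 kb to the right of an EZH2 peak of 1.2 kb (174153001 to 174154200), the centres lying 3.1 kb apart. On chromosome 10, 9.8 kb of H3K27me3 went 6.6 kb to the left and 1.4 kb to the right of an EZH2 peak of 1.8 kb (86955201 to 86957000).

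At the lower end, 5 sites had an EZH2 peak of 800 bp, the smallest width in that list, and all 5 had a wider H3K27me3 peak. The widest was on chromosome 17 (66798001 to 66798800), where H3K27me3 covered 6.8 kb, a ratio of 8.5, although the nearest wide EZH2 peak was 9.38 Mb away. Both sites on chromosome 11 (61770201 to 61771000 and 92959801 to 92960600) had 2.2 kb of H3K27me3. The site on chromosome 12 (107198801 to 107199600) had 2.0 kb and that on chromosome 4 (122673201 to 122674000) had 1.8 kb. Another 188 solitary EZH2 peaks of 800 bp had no H3K27me3 peak. H3K27me3 of 400 bp, the smallest width in its list, was found at 26 of the 441 sites.

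At 2 sites the EZH2 peak met 2 H3K27me3 peaks. On chromosome 8 an EZH2 peak of 3.0 kb (126124201 to 126127200) held H3K27me3 peaks of 1.0 and 0.4 kb inside it. On chromosome 11 an EZH2 peak of 2.8 kb (98165801 to 98168600) was met from the left by 3.0 kb of H3K27me3 and from the right by a domain of 35.6 kb (98168001 to 98203600) that lies over the neighbouring wide EZH2 peak of 29.0 kb. That site is described by the left peak, which shared the longer stretch with it.

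The third question was how far the sites lay from wide EZH2 peaks. They lay farther away than the 1832 smaller solitary EZH2 peaks without H3K27me3, which share their upper limit of width but were narrower. The median distance, edge to edge, was 1.08 Mb (0.928 to 1.30 Mb, quartiles 0.330 and 3.33 Mb) for the 441 sites with H3K27me3 and 0.408 Mb (0.347 to 0.465 Mb, quartiles 0.0722 and 1.85 Mb) for the 1832 without. A wide EZH2 peak lay within 100 kb of 49 of the 441 (11.1%, 8.51% to 14.4%) and of 525 of the 1832 (28.7%, 26.6% to 30.8%). Within 20 kb the numbers were 17 (3.85%) and 213 (11.6%). The contrast depended on the wide peak. A wide peak without H3K27me3 lay within 100 kb of 2.27% and 17.5%, and one with H3K27me3 within 100 kb of 9.75% and 17.8%. Beyond the 5000 bp that both sets had to keep, the distance to a wide peak had no part in choosing the sites. It was compared over sites and not over replicates, so no test of the difference was made.

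The difference was present in each width class. For EZH2 peaks of 800 to 1400 bp the medians were 1.54 Mb with H3K27me3 (0.658 to 2.42 Mb) and 0.485 Mb without (0.393 to 0.557 Mb). For those of 1600 to 2400 bp they were 1.19 Mb (0.947 to 2.06 Mb) and 0.393 Mb (0.296 to 0.486 Mb). For those of 2600 to 4200 bp they were 0.937 Mb (0.785 to 1.21 Mb) and 0.325 Mb (0.251 to 0.426 Mb). When the peaks without H3K27me3 were weighted to the widths of the 441 sites, their share within 100 kb of a wide peak was 31.3% and their median distance 0.338 Mb, so that the gap to the sites was slightly larger than without weighting.

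**Figure D3:**
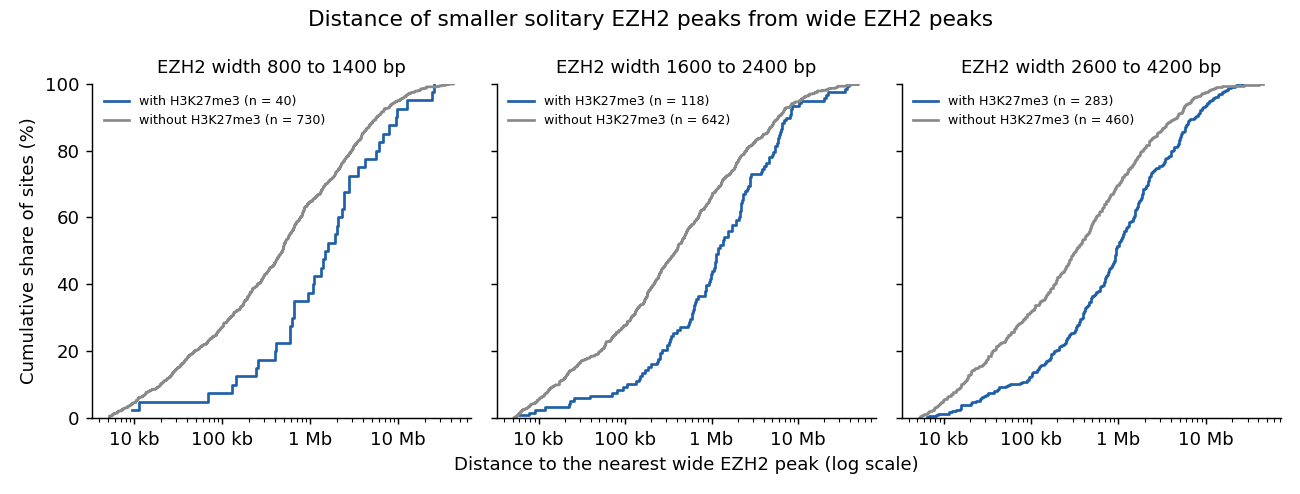
Cumulative share of smaller solitary EZH2 peaks (%) by distance to the nearest wide EZH2 peak (log scale), in panels of 3 EZH2 width classes; blue, with H3K27me3 in the R302S rescue, grey, without. The blue curves run to the right of the grey ones over most of the range, with medians of 1.54, 1.19 and 0.937 Mb against 0.485, 0.393 and 0.325 Mb.

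Seen from the other side, the share of smaller solitary EZH2 peaks that carried H3K27me3 was higher the farther they lay from a wide EZH2 peak. It was 7.39% (4.67% to 11.5%) of 230 peaks at 5 to 20 kb, 9.30% (6.67% to 12.8%) of 344 at 20 to 100 kb and 16.9% (14.0% to 20.2%) of 563 at 100 to 500 kb. It was 26.0% (22.5% to 29.8%) of 551 at 0.5 to 2 Mb and 26.3% (22.9% to 30.0%) of 585 beyond 2 Mb. In the class of 2600 to 4200 bp it went from 15.3% (11 of 72) at 5 to 20 kb to 88 of 176 (42.7% to 57.3%) beyond 2 Mb. In the narrowest class the 2 nearest bins held 2 and 1 sites with H3K27me3, too few to order them.

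**Figure D4:**
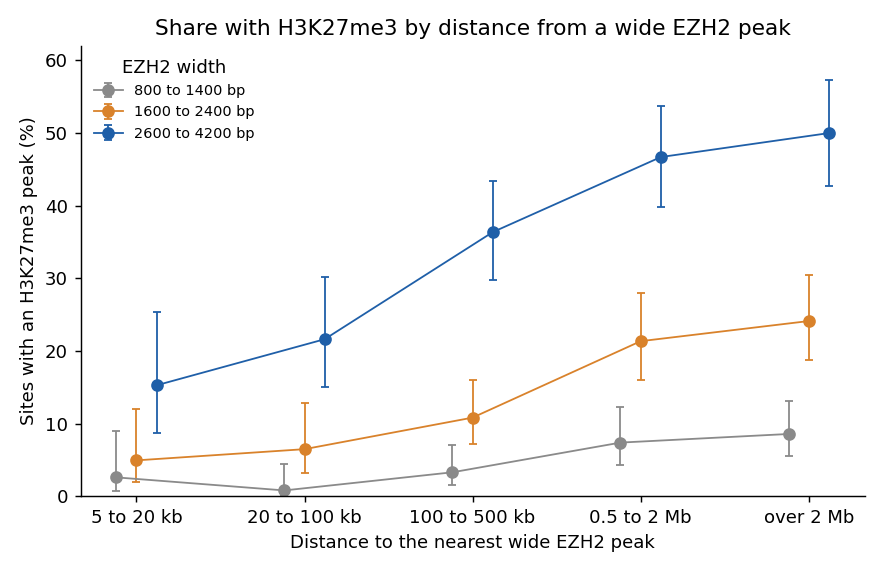
Share of smaller solitary EZH2 peaks with an H3K27me3 peak (%) by distance to the nearest wide EZH2 peak, for 3 classes of EZH2 width; points are shares and bars 95% Wilson intervals over sites. In the class of 2600 to 4200 bp the share goes from 15.3% in the nearest bin to 88 of 176 peaks in the farthest, and in the other classes it is also higher beyond 0.5 Mb than within 100 kb.

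The median width of the H3K27me3 peaks at the sites showed no steady change with this distance. Their median width was 2600 bp (1000 to 4600 bp) at the 17 sites within 20 kb of a wide EZH2 peak, 3400 bp (2000 to 3800 bp) at 32 sites at 20 to 100 kb, 2800 bp at both 95 sites at 100 to 500 kb and 143 sites at 0.5 to 2 Mb, and 2600 bp (2200 to 3200 bp) at 154 sites beyond 2 Mb. All these intervals overlap, and that of the nearest 17 sites is broad. The median EZH2 width of the same sites, from nearest to farthest, was 3000, 3200, 3200, 2800 and 2600 bp. The median ratio of H3K27me3 to EZH2 width was 0.875 (0.429 to 2.3), 1.03, 1.0, 1.07 and 1.05 (0.909 to 1.2), also with overlapping intervals. The widest peaks lay near: those of 31.2, 27 and 20.8 kb were at sites 15.6, 8.2 and 6.8 kb from a wide EZH2 peak. The domain of 35.6 kb, not counted in these widths, meets a site at 6.4 kb.

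The sites nearest to and farthest from a wide EZH2 peak show the range. Nearest, at 5.8 kb, was an EZH2 peak of 2.0 kb on chromosome 7 (144513001 to 144515000) with 4.6 kb of H3K27me3, and the wide peak of 7.0 kb beside it had none. Next came the site on chromosome 11 with 2 H3K27me3 peaks, at 6.4 kb, and the site on chromosome 13 within the domain of 20.8 kb. A peak of 1.8 kb on chromosome 13 (53557001 to 53558800) with 2.6 kb of H3K27me3 lay 7.8 kb from a wide peak with H3K27me3. The site on chromosome 7 in the domain of 27 kb, at 8.2 kb, completed the nearest 5.

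The farthest were on chromosomes 12, 13 and X. On chromosome 12, peaks of 2.2 kb (15821001 to 15823200) and 2.4 kb (17330401 to 17332800), with 1.6 and 5.2 kb of H3K27me3, lay 38.5 and 37.0 Mb from the same wide EZH2 peak. On chromosome 13, peaks of 2.4 kb (13875601 to 13878000) and 1.0 kb (23487401 to 23488400), each with 1.2 kb of H3K27me3, lay 34.9 and 25.3 Mb from 1 wide peak. On the X chromosome a peak of 3.4 kb (33867601 to 33871000) with 2.2 kb of H3K27me3 lay 26.4 Mb away. These sites show that H3K27me3 was called in R302S cells at small EZH2 peaks with the nearest wide EZH2 peak 25.26 Mb or more away.

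The distance to wide peaks moved together with the local density of EZH2 peaks of any width. The median number of other EZH2 peaks within 1 Mb was 3 for the sites with H3K27me3 and 6 for those without. The nearest EZH2 peak of any width lay at a median of 181.8 kb (143.6 to 238.6 kb) and 63.4 kb (55.2 to 72.0 kb), and the nearest other one of 4200 bp or less at 239.0 and 90.5 kb. H3K27me3 was present at 62 of 217 smaller solitary peaks with no other EZH2 peak within 1 Mb (28.6%, 23.0% to 34.9%), at 178 of 653 with 1 to 3 (27.3%), at 136 of 629 with 4 to 9 (21.6%) and at 65 of 774 with 10 or more (8.40%, 6.64% to 10.6%). Among peaks with 4 to 9 others within 1 Mb, 19.5% (15.6% to 24.1%) with a wide peak within 500 kb and 23.9% (19.4% to 29.0%) without one carried H3K27me3, and with 1 to 3 others the shares were 24.6% (17.7% to 33.1%) and 27.9% (24.2% to 31.8%). Among those with 10 or more, they were 7.38% (5.66% to 9.57%) of 691 and 16.9% (10.3% to 26.3%) of 83. The intervals overlapped in both of the sparser classes and not in the densest. The densest class has no upper limit, and EZH2 width was not held fixed. The separate parts of distance and density were not tested.

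The fourth question was whether the nearest wide EZH2 peak itself carried H3K27me3. It did at 360 of the 441 sites (81.6%, 77.8% to 85.0%) and at 1164 of the 1832 peaks without H3K27me3 (63.5%, 61.3% to 65.7%), against 57.9% of all 819 wide EZH2 peaks. Several sites can share a wide peak. Counting each wide peak once, 190 of the 248 nearest to the sites had H3K27me3 (76.6%, 71.0% to 81.5%), and 353 of the 581 nearest to the other peaks (60.8%, 56.7% to 64.6%). A wide peak could be counted for both.

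Near a wide peak, H3K27me3 at the smaller peak went with H3K27me3 at the wide one. Where the nearest wide EZH2 peak was within 100 kb and carried H3K27me3, 41 of 295 smaller solitary peaks carried it too (13.9%, 10.4% to 18.3%). Where it was within 100 kb and carried none, 8 of 279 did (2.87%, 1.46% to 5.56%). Beyond 100 kb the shares were 319 of 1229 (26.0%, 23.6% to 28.5%) and 73 of 470 (15.5%, 12.5% to 19.1%). In the class of 2600 to 4200 bp, 30 of 103 (29.1%, 21.2% to 38.5%) had H3K27me3 within 100 kb of a wide peak with it, and 5 of 80 (6.25%, 2.70% to 13.8%) within 100 kb of one without. The intervals overlapped in both narrower classes. For 1600 to 2400 bp the numbers were 9 of 93 (9.68%, 5.18% to 17.4%) and 2 of 96 (2.08%, 0.573% to 7.28%). For 800 to 1400 bp they were 2 of 99 and 1 of 103. The local density of EZH2 peaks was not held fixed in these shares. The 41 include the sites in the domains of 31.2, 27 and 20.8 kb and the site met by that of 35.6 kb. There the same H3K27me3 peak lies on the site and the wide peak, so the agreement is fixed.

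Over all widths together, other H3K27me3 peaks were somewhat fewer around the sites than around the peaks without H3K27me3. Another H3K27me3 peak, not counting the one at the site, lay within 100 kb of 89 of the 441 sites (20.2%, 16.7% to 24.2%) and of 475 of the 1832 peaks without H3K27me3 (25.9%, 24.0% to 28.0%). These intervals only just overlap, and under 6 of the 10 alternatives that gave both they did not. The median distance to it was 484.4 kb (388.4 to 592.2 kb) and 342.2 kb (304.6 to 384.8 kb), intervals that do not overlap. Within the width classes of 800 to 1400, 1600 to 2400 and 2600 to 4200 bp the intervals of the shares overlapped. The shares were 12.5% and 26.6%, 22.9% and 23.4%, and 20.1% and 28.5%, in that order. EZH2 peaks of any width were also fewer, with 1 or more within 100 kb of 37.4% and 57.5%. The part of this in the difference was not tested. From each site, the nearest other site of the 441 was at a median of 1.15 Mb, and 45 sites (10.2%) had one within 100 kb. This spacing was not compared with that of other peaks.

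All 20 chromosomes of the EZH2 list held such sites, from 10 to 46 each. The share of smaller solitary peaks with H3K27me3 was 38.2% (29.4% to 47.9%) on chromosome 7 and 29.1% (21.2% to 38.5%) on chromosome 9. It was lowest on chromosomes 19 (9.62%, 5.31% to 16.8%), 17 (9.80%, 6.03% to 15.5%) and 15 (10.7%, 6.60% to 16.9%). Within chromosomes, the sites with H3K27me3 had the larger median distance to a wide EZH2 peak on 16 of 20, the exceptions being chromosomes 1, 7, 13 and 16. Their share within 100 kb of a wide peak was lower on 17 of 20, the exceptions being 7, 13 and 16, each with 2 to 4 sites that near. In percentage points the contrast was widest on chromosome 15 and next on chromosome 17. Within 100 kb of a wide peak lay 0 of 15 sites with H3K27me3 and 57 of 125 without on chromosome 15. On chromosome 17 they were 2 of 15 and 78 of 138. Without chromosome 17 the shares within 100 kb over the genome were 11.0% and 26.4%.

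**Figure D5:**
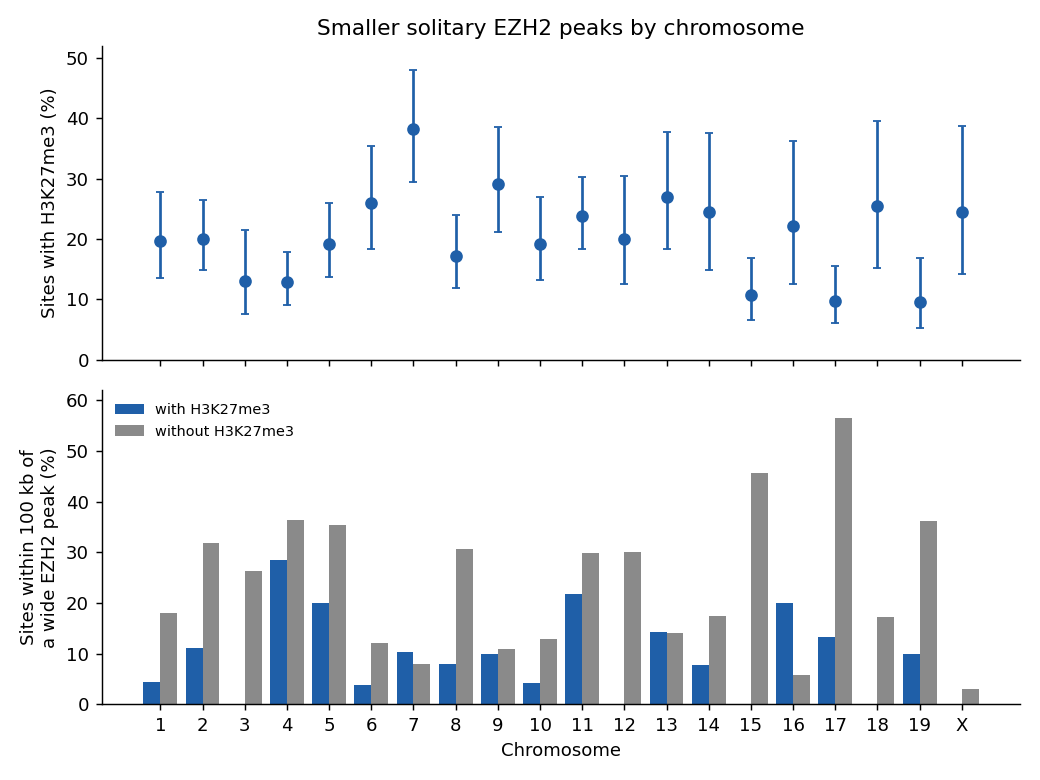
Top, share of smaller solitary EZH2 peaks with H3K27me3 on each chromosome (%), with 95% Wilson intervals over sites. Bottom, share of such peaks within 100 kb of a wide EZH2 peak (%), for those with H3K27me3 (blue) and without (grey); the blue bar is lower on 17 of 20 chromosomes and higher on 7, 13 and 16, and a missing blue bar is a share of 0.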

How the data were processed

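Bowtie 1.0.0, deepTools and the build mm9 were used by the authors, per the submitters' processing notes. How peaks were called (program, cutoff, control library, pooling) is not given in the sources used here. The deposited lists hold a start and an end per peak, and the H3K27me3 list a name, with no score. All starts were multiples of 200 bp and all ends 1 bp short of one, so 1 was added to each end. The smallest width and gap were 800 and 2200 bp for EZH2 and 400 and 1200 bp for H3K27me3, so widths in the lists are not on quite the same footing.

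Overlaps and edge distances were computed under Python 3.11.15 (pandas 2.3.3, numpy 2.4.6) and checked on simulated lists; bedtools 2.31.1 gave the same 441 sites. A gap of exactly 5000 bp counted as a neighbour. A site that met 2 H3K27me3 peaks was described by the one sharing more bases. Intervals are at 95% (scipy 1.17.1), and figures were drawn with matplotlib 3.10.9. Sites named singly are the 5 with the widest H3K27me3, the largest width ratio, the largest offset, the narrowest EZH2 peak, and the smallest and largest distance to a wide peak, and the 2 with 2 H3K27me3 peaks. The sites and these rules were chosen with earlier results of these data known. The planned comparisons of genes and of base composition were not made, since the gene table at hand was of GRCm38.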

Additional observations from a re-analysis of the deposited data

How the results depend on the processing

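Of 115 values recomputed under 14 alternatives, 86 stayed inside the interval of the reported value. Sites with H3K27me3 lay farther from wide EZH2 peaks, and fewer of them within 100 kb, in all 11 settings that gave both values (the reported one included), and their nearest wide peak carried H3K27me3 more often in all 10. Where more overlap was required or the H3K27me3 list was trimmed, the peaks counted as without H3K27me3 included some that met it under the reported rule. With 50% or more of each peak shared they were 1966 instead of 1832. Another H3K27me3 peak nearby was less frequent around the sites than around the peaks without H3K27me3 in all 11, with intervals that did not overlap in 6. The share of smaller solitary peaks with H3K27me3 (19.4%) was 13.5% with 50% or more of each peak shared, 21.1% with no other EZH2 peak within 10 kb, 10.3% for EZH2 peaks of 2400 bp or less and 17.8% with the H3K27me3 list joined and trimmed to the smallest gap and width of EZH2. For EZH2 peaks of 2400 bp or less the median H3K27me3 width was 2000 bp, the width ratio 1.18 and the distance to a wide peak 1336.3 kb. The share of sites within 100 kb of a wide peak (11.1%) was 8.47% in that first setting and 8.39% with no EZH2 peak within 10 kb. The latter setting gave, for peaks without H3K27me3, a distance of 531.4 kb, a share within 100 kb of 21.3%, a share of 66.5% whose nearest wide peak had H3K27me3, and a share of 21.0% with another H3K27me3 peak within 100 kb. With wide peaks from 8000 bp, the sites lay 5266.8 kb away, 4.76% of them within 100 kb and 86.2% with H3K27me3 at the nearest wide peak; for peaks without H3K27me3 these were 1806.6 kb, 14.0% and 74.8%. Weighted to the widths of the sites, the peaks without H3K27me3 gave 338.4 kb, 31.3% and 61.1%, and without chromosome 17, an alternative chosen after seeing the data, 468.7 kb, 26.4% and 66.8%. Another H3K27me3 peak lay within 50 kb of 14.7% of the sites and 15.9% of the peaks without H3K27me3, and within 500 kb of 51.2% and 59.3%. The median offset stayed inside its interval in all 8 alternatives run for it. The cause of each of these shifts was not tested beyond what the altered limit itself fixes. No paired analysis was possible because every group is a single library, so no library could be omitted either. Depth is unknown, and sites under a list's threshold cannot be assessed.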
